A study of Mus musculus with 6 samples.

Results

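Nuclear receptors are transcription factors that read small lipid-soluble ligands, and the proteins that they recruit, the coactivators and corepressors, turn ligand binding into more or less transcription. 41 genes of this system were taken from the colon expression table of mice given pregnenolone 16α-carbonitrile (PCN), by matching gene symbols, out of 23282 genes in all. They comprised 34 nuclear receptors, 5 coactivators and 2 corepressors. 39 of the 41 passed the filter on low counts and were tested. The receptors Nr1i3 and Pgr did not pass.

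PCN is a synthetic steroid that activates PXR (gene symbol Nr1i2), a receptor of the gut and liver that binds drugs and bile acids and switches on genes of detoxification. PXR binds DNA together with RXR, and the same RXR proteins are also the partners of the vitamin D receptor, the liver X receptors (LXR), the peroxisome proliferator-activated receptors (PPAR), the retinoic acid receptors and the thyroid hormone receptors. HNF4, in contrast, pairs with itself and drives genes of the mature epithelium, while coactivators such as the p160 proteins and PGC-1 are shared by many receptors.

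Whole colon was sampled from C57BL/6J wild-type mice at 8 weeks of age. The PCN group received 3 intraperitoneal doses of 40 mg/kg, spaced by 8 h, in a mixture of DMSO and corn oil, and colon was taken 8 h after the final dose. The vehicle (Veh) group is labelled as control. There were 3 libraries in each group, numbered 3, 5 and 6 for Veh and 4, 5 and 6 for PCN, and no label says that each library came from its own mouse, so a p-value here covers library-to-library spread, which may be technical.

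Total counts ranged from 21924026 to 25422856 per library, and 20538 to 20963 genes had at least 1 read. Libraries of the same group correlated at 0.973 to 0.984 and libraries of different groups at 0.969 to 0.982, so the groups did not stand apart as a whole. Counts were scaled to library size as CPM. The 12 colon epithelium markers summed to 13500 to 16954 CPM in Veh and 15823 to 16696 CPM in PCN, and all 12 were present in the table. The 7 goblet cell markers summed to 22148 to 26778 CPM in Veh and 29243 to 41489 CPM in PCN. Muc2 alone made up most of that sum, with 14066 to 17047 CPM in Veh and 20348 to 25743 CPM in PCN. The 8 fibroblast markers summed to 1058 to 1317 against 1395 to 1965 CPM, and the 8 T and B cell markers to 225 to 510 against 636 to 1248 CPM, so these 3 sums did not overlap between the groups. Single markers mostly did overlap, with 2 of the 7 goblet cell, 3 of the 8 fibroblast and 1 of the 8 T and B cell markers higher in every PCN library. That last one was Jchain, a gene of plasma cells, which made up most of its sum with 214 to 484 CPM in Veh and 617 to 1195 CPM in PCN. The sums of smooth muscle, macrophage and adipocyte markers did overlap, and none of these markers was at 0 in all 6 libraries. The sums of pancreas markers overlapped too. Among them Pnlip, Cela2a and Prss2 had 255, 236 and 207 reads in Veh replicate 3 and at most 14 in any other library. Cela1 did not share this, with 1000 reads there and 878 to 1751 in the others. The part of these reads in any difference was not tested. In bulk tissue, fewer cells of a type and less RNA per cell cannot be told apart.

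The colon held most of these receptors at moderate levels. In FPKM, which scales counts to gene length and library size and so allows comparison between genes, 14 of the 41 averaged above 10, 19 lay between 1 and 10, and 8 lay below 1. Hnf4a, a master regulator of gut epithelial genes, led with 139.6 FPKM over the 6 libraries (range 111 to 164). The vitamin D receptor Vdr followed with 78.1 (66.6 to 99.9) and Esrra, an orphan receptor of mitochondrial genes, with 47.9 (44.5 to 50.6). Each of the first 2 stayed above the next gene in every library. Below them the order blurred, because 35 of the 40 neighbouring pairs in the ranking overlapped in their ranges.

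Nr1i2, the receptor of PCN, ranked 6 with 33.7 FPKM (26.0 to 39.6), between Pparg at 34.7 and Ppard at 29.9, and its range overlapped with both. The LXR gene Nr1h2 stood at 39.8 and Rxra at 22.6. Corepressor Ncor1 was at 20.3 FPKM, the glucocorticoid receptor Nr3c1 at 19.2 and Rxrb at 17.5. The 8 lowest genes were Nr2f1, Nr4a3, Esrrg, Esr1, Rxrg, Rarb, Nr1i3 and Pgr, from 0.506 down to 0.0201 FPKM.

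**Figure D1:**
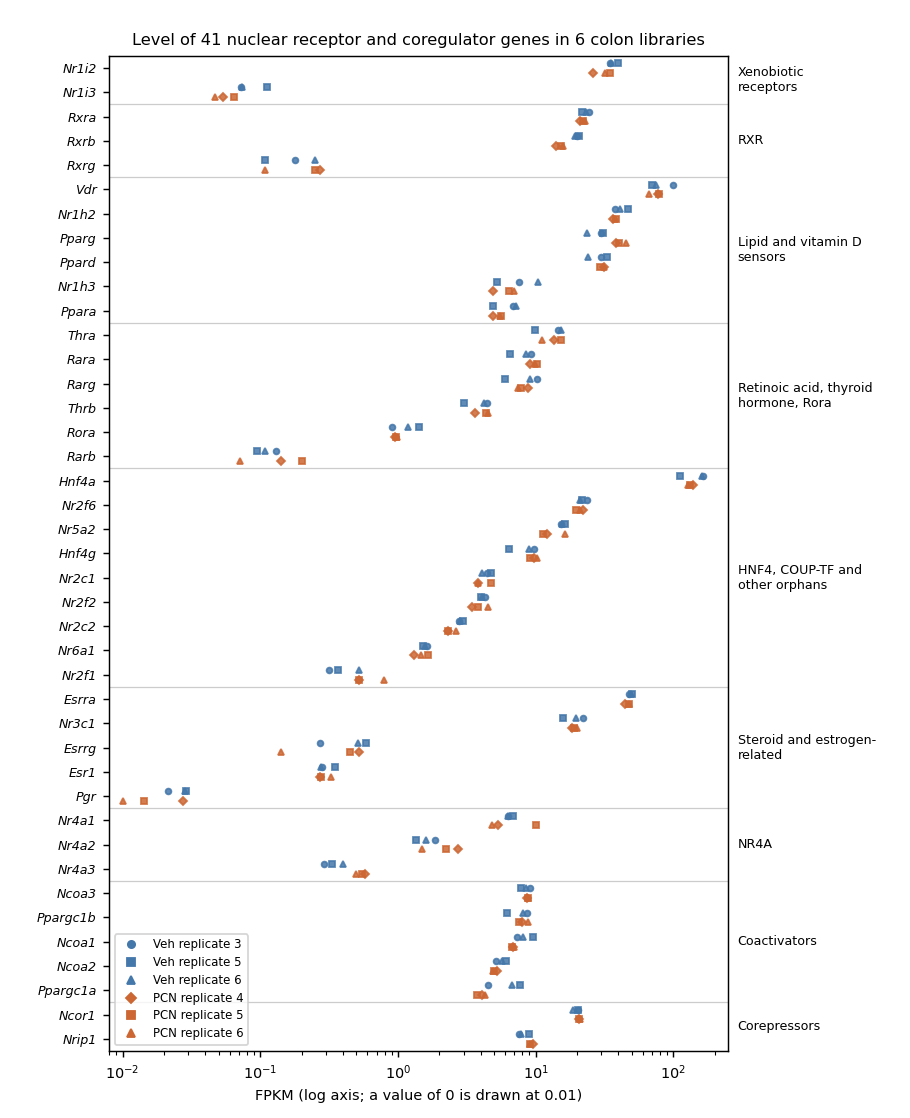
FPKM of the 41 genes in each of the 6 libraries on a log axis, grouped by role and ordered by level within a role, with blue for Veh, orange for PCN and the marker shape for the replicate. Hnf4a lies highest at 139.6 FPKM on average, Nr1i3 and Pgr lie lowest at 0.0707 and 0.0201, and for most genes the blue and orange points intermingle.

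Few of them differed between PCN and vehicle. By edgeR's quasi-likelihood test with adjustment over all 16586 genes tested, 0 of the 39 passed an adjusted p of 0.05, while 6 genes of the whole table did (0.0362%, of which 0.0301% higher and 0.00603% lower). Before adjustment, 5 of the 39 (12.8%) had a p under 0.05, against 9.98% of all genes. Those higher in PCN were Pparg, Nr4a3 and Nrip1 (3 of 39, 7.69%, against 6.25% of all genes), and those lower were Ppargc1a and Rxrb (2 of 39, 5.13%, against 3.73%). DESeq2, a second count test, called 1 of the 37 to which it gave an adjusted p, namely Pparg on the higher side, and 1.53% of all genes (1.22% higher). Both shares of called genes are close to the background of the table.

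The differences were also small. Of the 39, 18 (46.2%) lay above 0, against 51.6% of all genes. The median log2 fold change of the 39 genes was -0.03, beside 0.01 for all genes tested, and 31 of the 39 (79.5%) lay within 0.3 on either side of 0, beside 72.3% of all genes. The extremes were -0.60 for Ppargc1a and 0.71 for Nr4a3. For 21 genes the whole 95% confidence interval lay within 0.5 of no change, and for 32 within 1, so that a log2 difference beyond 1 lay outside the interval for those 32 only. In 10 of the 39 (25.6%) the 3 PCN libraries did not overlap with the 3 Veh libraries, against 16.1% of all genes. These were Ncor1, Nr2f1, Nr4a3, Nrip1, Pparg and Rara on the higher side (6 of 39, 15.4%, against 8.69% of all genes) and Ncoa1, Nr2c2, Ppargc1a and Rxrb on the lower (4 of 39, 10.3%, against 7.39%).

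**Figure D2:**
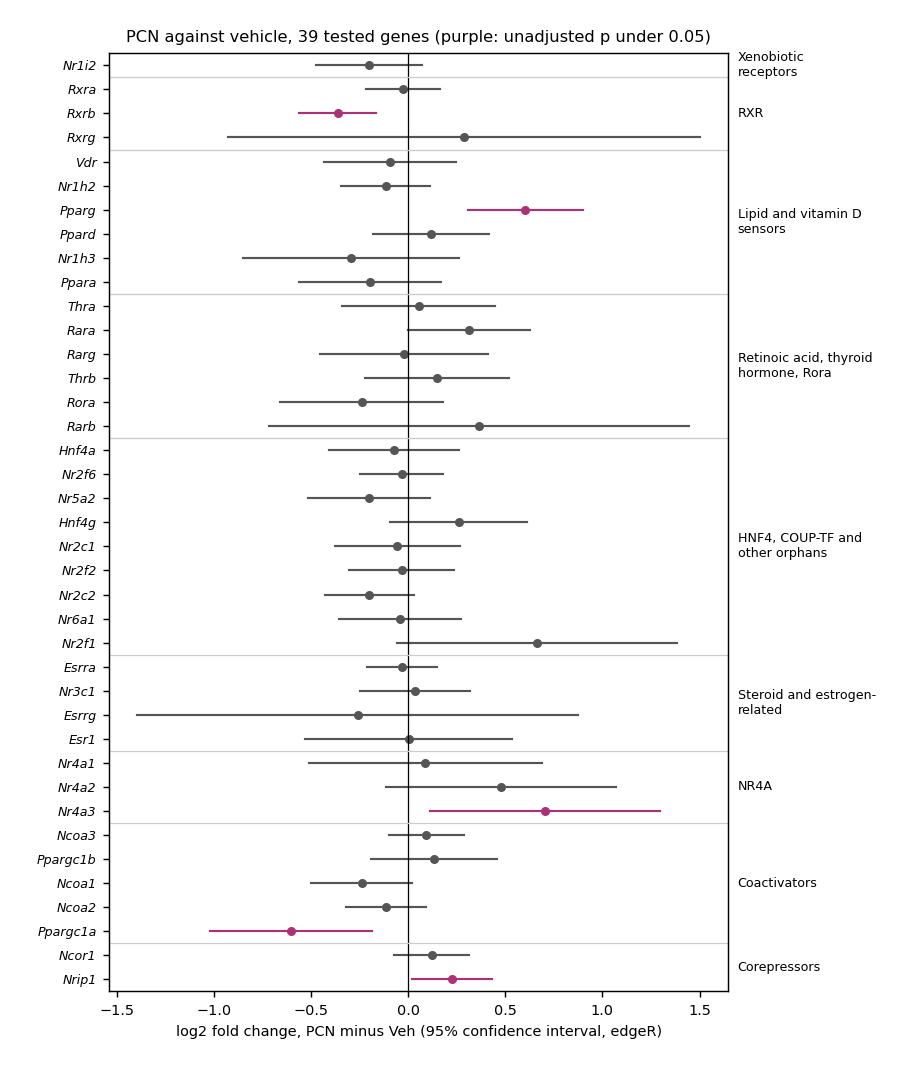
log2 fold change of PCN against Veh for the 39 tested genes (points) with 95% confidence intervals from edgeR (lines), grouped by role, with purple for the 5 genes whose unadjusted p was under 0.05. Most points sit within 0.3 of 0, and the purple intervals of Rxrb and Ppargc1a lie to the left while those of Pparg, Nr4a3 and Nrip1 lie to the right.

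The first question was whether the receptor of PCN itself differed. Nr1i2 read 88.1, 101 and 86.9 CPM in Veh replicates 3, 5 and 6 and 67.9, 89.8 and 82.4 CPM in PCN replicates 4, 5 and 6. The groups overlapped, with PCN replicate 4 lowest. Its log2 fold change was -0.20 (SE 0.119, 95% interval -0.47 to 0.07, edgeR adjusted p = 0.593), so an increase of PXR mRNA beyond 0.07 on the log2 scale lies outside the interval. Nr1i3, which encodes the related drug sensor CAR, had only 7, 12 and 8 reads in Veh and 6, 7 and 5 in PCN. In CPM these were 0.318, 0.495 and 0.314 against 0.241, 0.289 and 0.212, which did not overlap. It was not tested, and 74.9% of its exon bases overlap the exons of Tomm40l on the opposite strand, so these few reads cannot be assigned firmly to it.

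The 250 bases before the RefSeq start of Nr1i2 (GRCm38.p6) are printed because this receptor is the direct target of the drug. None of the motifs searched was found in this window on either strand: the receptor half-sites AGGTCA and AGTTCA, the repeat with 4 spacer bases AGNTCANNNNAGNTCA, to which PXR with RXR is known to bind, the repeat with 1 spacer base AGNTCANAGNTCA, typical of PPAR and HNF4, and the cAMP response half-site TGACG with its full palindrome TGACGTCA, which contains the half-site on both strands.
Nr1i2, chr16:38294825-38295074, minus strand: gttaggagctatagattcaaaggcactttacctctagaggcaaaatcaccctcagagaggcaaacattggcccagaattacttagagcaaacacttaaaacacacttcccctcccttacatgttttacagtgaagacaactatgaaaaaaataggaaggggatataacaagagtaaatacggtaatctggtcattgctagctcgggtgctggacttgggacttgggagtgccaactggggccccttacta

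Across the 35 of the 41 genes that the RefSeq promoter table holds, AGGTCA occurred within 250 bases before a start in 7 (20%), against 15.8% of all 27025 genes in it, and AGTTCA also in 7 (20%), against 13.4%. The repeat with 4 spacer bases was in 0 of the 35 and in 0.122% of all genes, and that with 1 spacer base in 0 and 0.207%. TGACG was in 11 (31.4%), against 19.8% of all genes, and the full palindrome in 0, against 1.77%. The windows of these genes were rich in G and C, with a median of 60.4% against 52.4% over all windows, and held a median of 11 CG pairs against 6, which bears on any motif with a CG pair.

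Known PXR targets were called where the receptor mRNA was not. Of 19 tested targets, 17 were above 0, the median log2 fold change was 1.18 against 0.01 over all genes, and 13 had a higher level at an unadjusted p under 0.05, as had 6.25% of all genes. After adjustment, edgeR called 2 higher and DESeq2 called 9 higher and 1 lower, Cyp3a13. The edgeR calls were B3galt5, a glycosyltransferase (1.55, SE 0.147, adjusted p = 0.0262), and Akr1b7, an aldo-keto reductase (2.18, SE 0.244, adjusted p = 0.0460). Cyp3a44, a drug-metabolising cytochrome P450, was at 3.41 (SE 0.406, edgeR adjusted p = 0.0627). The study singled out B3galt5 from colon RNA-seq of PCN against vehicle, and named Cyp2c55 and Cyp3a11 among the genes raised there. These genes are in the list, which was itself chosen with earlier results of these data known. The direction of the list is therefore no independent evidence.

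Among the RXR partners, Rxrb passed an unadjusted p of 0.05 on the lower side and Rxra did not, and the difference between them was not tested. Rxrb read 79.4, 81.6 and 73.6 CPM in Veh and 56.9, 61.3 and 64.2 CPM in PCN, and every PCN library lay below every Veh library. The log2 fold change was -0.36 (SE 0.087, interval -0.56 to -0.16), with an unadjusted p of 0.00294, an edgeR adjusted p of 0.288 and a DESeq2 adjusted p of 0.0612. Leaving out any 1 library kept the unadjusted edgeR p between 0.00402 and 0.0151. In the same way the DESeq2 adjusted p ranged from 0.0515 to 0.319.

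Rxra read 153, 137 and 141 CPM in Veh and 136, 140.0 and 147 CPM in PCN, fully overlapping, with a log2 fold change of -0.03 (interval -0.22 to 0.16, edgeR adjusted p = 0.942). Rxrg, the member typical of muscle and brain, was scarce, with 0.409, 0.247 and 0.549 CPM in Veh and 0.643, 0.578 and 0.254 CPM in PCN. Its interval of -0.93 to 1.5 leaves its direction unsettled. In FPKM the RXR genes together summed to 42.4 to 44.5 in Veh and 35.4 to 39.0 in PCN, which did not overlap. The share of Rxrb in that sum was 45.0% to 48.5% in Veh and 39.7% to 40.8% in PCN, and the share of Rxra was 51.2% to 54.6% in Veh and 58.6% to 59.6% in PCN. A summed FPKM without overlap was not particular to RXR. The PPAR sum was 54.9 to 69.0 in Veh and 74.6 to 81.8 in PCN. The LXR sum was 45.3 to 52.4 in Veh and 41.4 to 45.0 in PCN. For the p160 coactivators it was 21.5 to 23.6 in Veh and 20.6 to 20.7 in PCN. The sums of the other families compared did overlap.

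Pparg, the PPAR that colon epithelium and fat cells share and that fatty acid derivatives engage, was the 1 gene called by DESeq2. It read 87.3, 91.2 and 66.9 CPM in Veh and 116, 122 and 135 CPM in PCN. The lowest PCN library stood above the highest Veh library, and Veh replicate 6 was the lowest of all. The fold was 1.52 (log2 fold change 0.60, SE 0.129, interval 0.31 to 0.90), with an edgeR unadjusted p of 0.00146 and adjusted p of 0.217, and DESeq2 gave a log2 fold change of 0.59 with an adjusted p of 0.0182.

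That call did not hold in every fit with 1 library left out. With DESeq2, the adjusted p of Pparg was 0.0725 when Veh replicate 6 was left out. It was 0.106 in the fit lacking PCN replicate 5 and 0.111 in that lacking PCN replicate 6, and it stayed under 0.05 without Veh replicate 3, Veh replicate 5 or PCN replicate 4. Under edgeR, dropping 1 library at a time gave log2 fold changes of 0.48 to 0.69. The unadjusted edgeR p was then 0.00143 to 0.00769 and the adjusted p 0.205 to 0.456. All 6 adipocyte markers had log2 fold changes below 0, none of them called, and Adipoq, the defining one, read 5.44 to 10.8 CPM in Veh and 3.22 to 9.88 CPM in PCN. The goblet, fibroblast and T and B cell sums were higher in PCN as Pparg was, the last of them mostly through Jchain. All 7 macrophage, all 10 smooth muscle and all 3 interstitial cell of Cajal markers also had log2 fold changes above 0, but their sums overlapped. The part of any of these cell types in the Pparg difference was not tested.

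Ppard, the PPAR found in most tissues, had a log2 fold change of 0.12 (interval -0.18 to 0.42), and Ppara, which governs fatty acid burning, -0.20 (interval -0.56 to 0.17). Both overlapped between groups. Pparg accounted for 42.9% to 44.9% of the summed PPAR FPKM in Veh and for 51.4% to 55.1% in PCN, while Ppard held 44.0% to 48.1% in Veh and 38.2% to 42.0% in PCN. The other receptors of this class also overlapped. Vdr read 562, 395 and 410.0 CPM in Veh and 448, 450.0 and 383 CPM in PCN (log2 fold change -0.09, interval -0.43 to 0.24), and the LXR genes Nr1h2 and Nr1h3 had -0.11 and -0.30, with Nr1h3 ranging from 13.2 to 25.3 CPM within Veh alone.

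Known targets of these receptors were read list by list. Of 13 tested PPAR targets 12 were below 0 (median -0.32), none was called by edgeR after adjustment, and 4 had a lower level at an unadjusted p under 0.05 (as had 3.73% of all genes). Among these were Acaa2 and Acot1, enzymes of fatty acid metabolism (-0.35 and -0.76), and Plin2. Of 9 LXR targets 6 were above 0, and 4 were higher at an unadjusted p under 0.05, against 6.25% of all genes. Among them were Abcg5 and Abcg8, whose products export sterols together, at 1.51 (SE 0.338) and 1.01 (SE 0.240), both called by DESeq2 (adjusted p = 0.00371 and 0.0226). Scd2, a fatty acid desaturase, was at 1.42 (SE 0.342) and Srebf1, a regulator of lipid synthesis, at 0.33.

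Of 4 tested VDR targets, 2 were above and 2 below 0 (median 0.08). Atp2b1, a plasma membrane calcium pump, was at 0.80 (SE 0.101) and called by DESeq2 (adjusted p = 4.03e-08), and the claudin Cldn2 was at 0.64 (SE 0.185). S100g, a calcium-binding protein, was at -0.49 (SE 0.357) and Slc30a10, a metal transporter, at -0.57 (SE 0.401), and both overlapped. Each of these lists is short and was compiled from textbook targets, and many of the genes answer to more than 1 receptor. The FXR target Slc51a, a bile acid exporter subunit, read 78.7, 43.2 and 98.3 CPM in Veh and 27.6, 27.1 and 27.7 CPM in PCN, with a log2 fold change of -1.42 (SE 0.258, DESeq2 adjusted p = 1.04e-05). FXR itself, Nr1h4, was at -0.12 and did not pass.

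**Figure D3:**
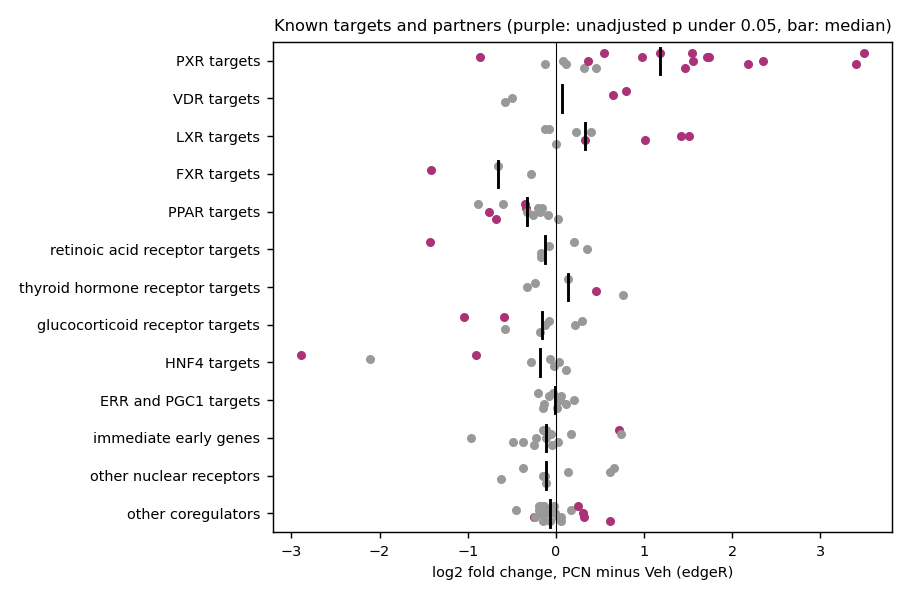
log2 fold change of PCN against Veh for the tested genes of 13 lists, 1 point per gene, purple where the unadjusted edgeR p was under 0.05, with a black bar at each list's median. PXR targets spread to the right with a median of 1.18, PPAR targets sit mostly left of 0 with a median of -0.32, and ERR and PGC1 targets cluster at 0.

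The retinoic acid, thyroid hormone and Rora receptors held 1 gene without overlap. Rara, the retinoic acid receptor of most tissues, read 40.6, 28.4 and 35.7 CPM in Veh and 40.8, 45.4 and 43.9 CPM in PCN, where Veh replicate 3 and PCN replicate 4 nearly touched. Its log2 fold change was 0.31 (SE 0.137, edgeR adjusted p = 0.496). Rarg was at -0.02, Thrb at 0.15 and Rora, an orphan receptor of the clock and of lymphoid cells, at -0.24. Thra, the best expressed gene of this class, read 67.2, 45.9 and 67.5 CPM in Veh and 63.7, 71.4 and 52.3 CPM in PCN, with a log2 fold change of 0.05. It shares 5.70% of its exon bases with Nr1d1 on the other strand. Rarb was under 1.1 CPM in every library, and 34.1% of its exon bases overlap Top2b.

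Targets of this class were few. Cyp26b1, which degrades retinoic acid, was the 1 of 6 retinoic acid receptor targets that passed an unadjusted p of 0.05 (log2 fold change -1.42, SE 0.426, DESeq2 adjusted p = 0.0433), and Me1, malic enzyme, the 1 of 5 thyroid hormone receptor targets (0.46, SE 0.136, edgeR adjusted p = 0.378).

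The HNF4, COUP-TF, testicular and other orphan receptors included the most abundant gene. Hnf4a read 790.1, 536 and 748 CPM in Veh and 691, 649 and 629 CPM in PCN, so that the PCN values lay inside the Veh range, and the log2 fold change was -0.07 (interval -0.41 to 0.26). Hnf4g, its gut-restricted relative, was at 0.26 (interval -0.09 to 0.61). Its share of the summed HNF4 FPKM was 5.28% to 5.58% in Veh and 6.37% to 7.38% in PCN, without overlap, although neither gene alone passed. Nr5a2, which supports crypt cell renewal and steroid synthesis in the gut, was at -0.20, with PCN replicate 6 at 97.5 CPM above every Veh library and the other PCN libraries at 72.4 and 68.0 CPM below. Without PCN replicate 6 the Nr5a2 value was -0.40 (edgeR unadjusted p = 0.00421, adjusted p = 0.293, DESeq2 adjusted p = 0.0515).

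Nr2c2, an orphan receptor that competes for direct repeats, read 41.3, 44.1 and 40.9 CPM in Veh and 35.2, 34.7 and 40.1 CPM in PCN. The groups did not overlap but PCN replicate 6 was close to Veh (log2 fold change -0.20, SE 0.099, edgeR adjusted p = 0.532), and 30.7% of its exon bases overlap Mrps25 on the other strand. Nr2f1 (COUP-TFI), a receptor of neurons and mesenchyme, was scarce, with 1.59, 1.85 and 2.55 CPM in Veh and 2.73, 2.68 and 4.11 CPM in PCN. No library overlapped, and the log2 fold change was 0.66 (SE 0.313, interval -0.06 to 1.38, edgeR adjusted p = 0.519). Its paralog Nr2f2 was at -0.03, as was Nr2f6, 54.4% of whose exon bases overlap Ocel1. Nr2c1 and Nr6a1 were at -0.05 and -0.04.

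Of 8 tested HNF4 targets, 2 were lower at an unadjusted p under 0.05, against 3.73% of all genes. Apoa1, an apolipoprotein of small intestine and liver, read 8.68, 1.94 and 9.22 CPM in Veh and 0.402, 0.619 and 1.65 CPM in PCN (log2 fold change -2.89, SE 0.691, DESeq2 adjusted p = 0.000951), and Mttp, which loads lipid onto lipoproteins, was at -0.90 (SE 0.303). Markers of small intestine summed to 842 to 1117 CPM in Veh and 935 to 1001 CPM in PCN, which overlapped. Among these markers, Enpep, a brush border peptidase, fell (log2 fold change -1.53, SE 0.128, edgeR adjusted p = 0.0262), and Apoa4, also an HNF4 target, was at -2.11 (SE 1.089, edgeR unadjusted p = 0.0878). The part of these markers in the Apoa1 result was not tested. The other 6 HNF4 targets, of which Vil1 and Cdhr5 mark the brush border, did not pass.

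All 4 tested steroid and estrogen-related receptors lay within 0.3 of 0 in log2 fold change. Esrra read 209, 223 and 209.6 CPM in Veh and 201, 213 and 214 CPM in PCN, with a log2 fold change of -0.03 (interval -0.21 to 0.15). Nr3c1, the glucocorticoid receptor, was at 0.04 (interval -0.25 to 0.32), Esr1 at 0.00 and Esrrg at -0.26 with an interval of -1.39 to 0.87. Pgr, the progesterone receptor, had 4, 6 and 6 reads in Veh and 6, 3 and 0 in PCN. None of the 10 tested ERR and PGC1 targets, genes of the respiratory chain and citric acid cycle among them, passed even an unadjusted p of 0.05 (median -0.01). Of 8 glucocorticoid receptor targets, Cdkn1a, a cell cycle inhibitor, and Sgk1, a kinase of sodium transport, were lower at that level (-0.59, SE 0.196, and -1.05, SE 0.417), as were 3.73% of all genes, and Sgk1 stood at 909.7 CPM in Veh replicate 5 against 207 to 382 CPM in the other libraries.

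The NR4A receptors are orphan receptors whose genes are switched on rapidly by stress and cAMP, as immediate early genes. All 3 were above 0 in log2 fold change, and 1 passed an unadjusted p of 0.05. Nr4a3 read 1.73, 1.98 and 2.31 CPM in Veh and 3.53, 3.30 and 3.01 CPM in PCN, with every PCN library above every Veh library (log2 fold change 0.71, SE 0.258, interval 0.12 to 1.30, unadjusted p = 0.0247 and adjusted p = 0.445 by edgeR). Nr4a2 was at 0.48 (interval -0.11 to 1.07) with PCN replicate 6 at 6.23 CPM inside the Veh range. Nr4a1, the most abundant, read 22.1, 24.2 and 21.1 CPM in Veh and 19.0, 35.6 and 17.1 CPM in PCN, so that 1 PCN library lay above and the other 2 below Veh. For Nr4a3, leaving out 1 library at a time gave unadjusted edgeR p of 0.0348 to 0.0802. Without PCN replicate 5 the Nr4a1 log2 fold change was -0.32.

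Of 14 immediate early genes only Fos, a subunit of AP-1, passed an unadjusted p of 0.05 (0.72, SE 0.282). It read 97.6 and 104 CPM in PCN replicates 4 and 5 but 43.7 CPM in PCN replicate 6, against 45.4 to 52.8 CPM in Veh. The median of the list was -0.11.

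The NR4A promoters are shown because all 3 genes carry the same short element repeatedly. Bases before the RefSeq start (GRCm38.p6) are given in the direction of the gene, with capitals marking TGACG or, for the opposite strand, CGTCA. Each of the 3 windows of 250 bases held 4 copies. Of all genes 19.8% held at least 1, and the share that held 4 was not counted. G and C made up 74.4% of the window of Nr4a1, 80% of that of Nr4a2 and 63.6% of that of Nr4a3. The median over all windows was 52.4%. For Nr4a3 the printed stretch stops where GENCODE annotates an exon, and holds 3 of its 4 copies.
Nr4a1, chr15:101266596-101266845, plus strand: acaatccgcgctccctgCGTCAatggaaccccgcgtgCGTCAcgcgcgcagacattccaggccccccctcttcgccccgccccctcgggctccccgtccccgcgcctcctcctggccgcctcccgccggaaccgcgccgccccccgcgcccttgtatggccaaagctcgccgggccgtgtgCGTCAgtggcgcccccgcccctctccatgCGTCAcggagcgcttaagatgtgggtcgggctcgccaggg
Nr4a2, chr2:57124004-57124253, minus strand: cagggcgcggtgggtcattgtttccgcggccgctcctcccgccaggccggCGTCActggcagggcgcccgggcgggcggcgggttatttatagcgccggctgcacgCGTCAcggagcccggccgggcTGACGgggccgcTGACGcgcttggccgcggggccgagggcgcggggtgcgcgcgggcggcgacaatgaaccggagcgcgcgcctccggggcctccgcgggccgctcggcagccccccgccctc
Nr4a3, chr4:48045055-48045152, plus strand: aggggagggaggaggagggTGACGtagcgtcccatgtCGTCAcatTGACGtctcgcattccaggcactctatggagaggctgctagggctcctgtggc
The copies lay 233, 213, 69 and 40 bases before the start of Nr4a1, 200, 144, 123 and 111 before that of Nr4a2 and 231, 213, 205 and 147 before that of Nr4a3.

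Among the coactivators, Ppargc1a (PGC-1α), which boosts mitochondrial and oxidative genes, was lower in PCN. It read 29.9, 50.4 and 42.5 CPM in Veh and 27.3, 24.9 and 28.7 CPM in PCN, where every PCN library lay below every Veh library but Veh replicate 3 came close to them. The log2 fold change was -0.60 (SE 0.182, interval -1.02 to -0.18, unadjusted p = 0.0104 and adjusted p = 0.382 by edgeR, adjusted p = 0.107 by DESeq2). Leaving out 1 library at a time gave -0.78 (without Veh replicate 3) to -0.42 (without Veh replicate 5), with unadjusted edgeR p of 0.000345 to 0.0397 and adjusted p of 0.0944 to 0.755. DESeq2 called Ppargc1a in 1 of these 6 fits, that without Veh replicate 3 (adjusted p = 0.000127), and its adjusted p reached 0.484 in the others.

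The window before the start of Ppargc1a, printed because this gene is a known target of cAMP signalling, held 1 copy of the same half-site on the opposite strand, 49 bases before the start, shown in capitals. The last base of the window is annotated as exon and is left out.
Ppargc1a, chr5:51567727-51567975, minus strand: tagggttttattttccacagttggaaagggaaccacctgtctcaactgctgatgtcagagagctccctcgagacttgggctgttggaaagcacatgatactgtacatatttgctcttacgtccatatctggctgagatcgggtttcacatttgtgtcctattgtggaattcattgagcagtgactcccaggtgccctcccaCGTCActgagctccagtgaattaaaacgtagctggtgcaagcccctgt

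The summed FPKM of the PGC-1 family was 18.7 to 21.6 in Veh and 20.0 to 21.5 in PCN and overlapped, whereas the shares of 2 of its 3 members did not. Ppargc1a made up 24.3% to 40.3% of it in Veh and 18.7% to 19.9% in PCN. Ppargc1b, a close relative, held 32.4% to 46.3% and 38.0% to 40.8%, with a log2 fold change of 0.13. Pprc1, the third relative, which is not among the 41 genes but responds to growth signals, held 27.3% to 31.2% in Veh and 39.3% to 43.3% in PCN, with 34.4, 32.5 and 40.7 CPM against 56.1, 55.2 and 54.0 CPM (log2 fold change 0.62, SE 0.107, adjusted p = 0.00108 by DESeq2, and not called by edgeR).

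**Figure D4:**
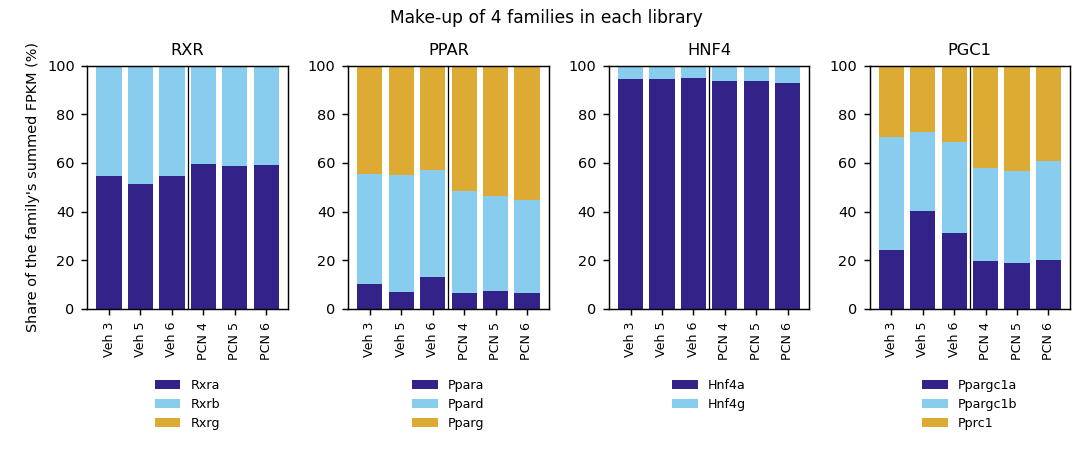
Stacked share of the summed FPKM of the RXR, PPAR, HNF4 and PGC1 families in each library, with Veh left of the black line and PCN right of it. Rxrb takes 45.0% to 48.5% in Veh and 39.7% to 40.8% in PCN, Pparg 42.9% to 44.9% and 51.4% to 55.1%, and Pprc1 27.3% to 31.2% and 39.3% to 43.3%.

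Shares were compared for 26 genes of 10 families, and 9 did not overlap between the groups. These were Rxra and Rxrb, Ppard and Pparg, Hnf4a and Hnf4g, Ppargc1a and Pprc1, and Ncoa1. Hnf4a and Hnf4g are the only genes of their family here, so their shares are the same comparison. The shares of Ncoa1 nearly touched, with a lowest Veh value of 33.85% and a highest PCN value of 33.80%. Shares within a family add up to 100%, so that a gain of 1 gene is a loss of the others, and with 3 libraries against 3 an exact permutation test cannot go below 0.1. They are given here as a description, and no background over other families was computed. In the LXR, retinoic acid receptor, thyroid hormone receptor, NR4A and ERR families all shares overlapped.

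The p160 coactivators, histone acetyltransferase partners of nearly all receptors, had log2 fold changes between -0.24 and 0.09. Ncoa1 read 62.3, 82.1 and 66.6 CPM in Veh and 59.6, 58.2 and 60.9 CPM in PCN, without overlap (log2 fold change -0.24, SE 0.113, edgeR adjusted p = 0.519), and without Veh replicate 5, the highest, the log2 fold change was -0.11. Ncoa3, the best expressed coactivator per length, read 71.2, 61.8 and 64.2 CPM in Veh and 69.5, 70.7 and 70.3 CPM in PCN (0.09, interval -0.10 to 0.29), and Ncoa2 was at -0.11 (interval -0.32 to 0.09).

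Neither corepressor was called after adjustment, and in both the lowest PCN library lay above the highest Veh library. Nrip1 (RIP140), which represses oxidative genes through many receptors, read 87.2, 102 and 87.0 CPM in Veh and 111, 106 and 106 CPM in PCN. Its log2 fold change was 0.23 (SE 0.090, interval 0.02 to 0.43, unadjusted p = 0.0361 and adjusted p = 0.475 by edgeR), and DESeq2 gave an adjusted p of 0.501. Leaving out 1 library at a time gave Nrip1 unadjusted edgeR p of 0.00431 to 0.127. Ncor1, the scaffold of a histone deacetylase complex that silences unliganded receptors, read 258, 260.3 and 229 CPM in Veh and 269, 269 and 274 CPM in PCN (0.12, SE 0.085, edgeR adjusted p = 0.649).

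**Figure D5:**
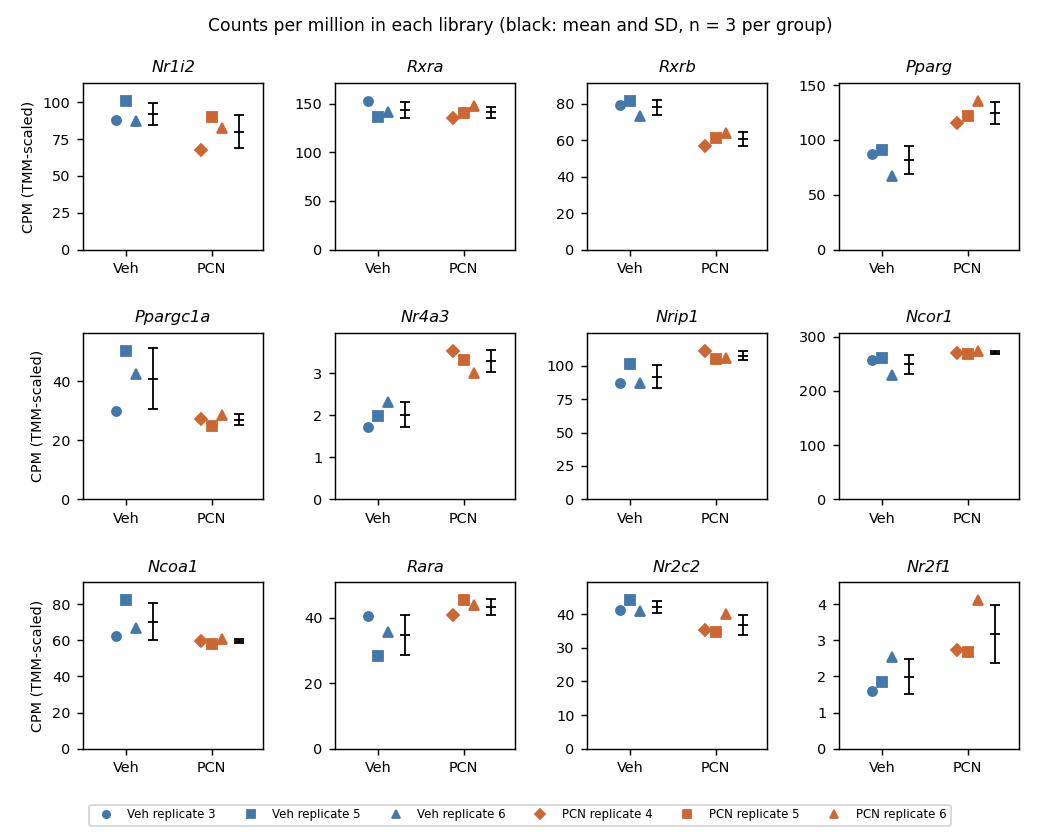
CPM in each library for Nr1i2, Rxra and the 10 genes whose groups do not overlap, with Veh in blue, PCN in orange, the marker shape for the replicate, a black bar for the mean and SD of 3 libraries, and each axis starting at 0. Nr1i2 and Rxra overlap, the 3 PCN points of Pparg lie at 116 to 135 CPM above all Veh points, and those of Rxrb lie at 56.9 to 64.2 CPM below them.

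Of 24 other coregulators tested, 5 passed an unadjusted p of 0.05, against 9.98% of all genes, with Pprc1, Tbl1x, Tbl1xr1 and the arginine methyltransferase Prmt1 higher and the acetyltransferase Crebbp lower. After adjustment edgeR called 0 and DESeq2 called Pprc1. Tbl1x and Tbl1xr1, subunits of the same corepressor complex as Ncor1, were at 0.31 and 0.32, with edgeR adjusted p of 0.313 and 0.397. None of 8 other nuclear receptors tested passed an unadjusted p of 0.05.

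The spread among replicates was itself uneven. For the 37 genes above 1 CPM, the median coefficient of variation was 14.9% in Veh and 7.32% in PCN, against 12.6% and 10.8% over all 14911 genes at that level. Veh replicate 5 held the lowest value of 12 of the 39 genes and the highest of 12 others (30.8% each, against 25.6% and 24.3% of all genes). Hnf4a, Hnf4g, Thra, Thrb, Rara, Rarg and Nr3c1 were lowest in that library, while Nr1i2, Rxrb, Pparg, Ppargc1a, Ncoa1 and Ncoa2 reached their Veh maximum there. Its level of Hnf4a, 536 CPM, against 748 and 790.1 CPM in the other Veh libraries, was farther from them than any PCN library was from another.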

How the data were processed

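Colon RNA-seq libraries (3 Veh, 3 PCN) were analysed from the authors' deposited table. The paper's methods describe adapter and quality trimming, STAR mapping and gene-level counting of reads with HTSeq against a pig assembly, whereas the labels name the mouse build mm10 and the identifiers are mouse. The library kit also differs between the paper and the labels, and the strand setting is not given in the sources used here. Counts and FPKM were deposited by the authors. The deposited fold changes, p-values and mark of regulated genes hold the authors' own comparison and were not used, nor were the deposited start and end.

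Counts were tested with edgeR 4.0.16 (R 4.3.3) after filterByExpr (minimum count 10, minimum total 15) and scaling by TMM (quasi-likelihood test, Benjamini-Hochberg over 16586 genes, threshold 0.05). The common biological coefficient of variation was 0.199. CPM values are TMM-scaled. DESeq2 1.42.0 and limma 3.58.1 on log2(FPKM + 1) and log2(FPKM + 0.1), RLE scaling, no filter, a replicate block and each library left out were alternatives. The fits were tested on simulated data.

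The genes and lists were chosen with earlier results of these data known. Values in every library are given for Nr1i2, Nr1i3 and the RXR genes, for genes with an edgeR unadjusted or DESeq2 adjusted p under 0.05, for those without overlap between groups, and for the gene with the highest FPKM of each role. Up to 3 genes per list are named, those with the smallest edgeR p among those under 0.05. Plin2, Srebf1, Cyp3a13, Prmt1, Crebbp, Nr1h4, Vil1, Cdhr5 and Adipoq, the values of further genes of the table and the family shares were added after values were seen. Some genes of the lists are not reported here. Exon overlaps were taken from GENCODE (GRCm38) and promoters from RefSeq (GRCm38.p6).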

Additional observations from a re-analysis of the deposited data

How the results depend on the processing

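The count of the 41 genes called was 0 with edgeR as reported, and also with RLE scaling, no filter, the replicate block, limma at both pseudocounts and each library left out. DESeq2 called 1 (Pparg). Chosen after seeing the data, DESeq2 with each library left out called 0 to 2. It called 2 without Veh replicate 3 (Pparg and Ppargc1a), 1 without Veh replicate 5 or PCN replicate 4, and 0 otherwise. Over all genes, edgeR called 6, no filter 27 and DESeq2 214, and edgeR with each library left out called 0 to 24, with 24 without Veh replicate 3, 4 without Veh replicate 5 and 0 without any of the others. The median log2 fold change of the 39 genes, -0.026 as reported, was -0.070 with limma on log2(FPKM + 0.1) and ranged from -0.038 to 0.033 with each library left out, so its sign is not fixed. Of the 39 genes, 22 kept their sign in all 19 alternatives and 17 did not, the farthest of these from 0 being Rarb at 0.36.

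Replicate numbers 5 and 6 occur in both groups. Deviations from the group means correlated at -0.15 and -0.09 between libraries of the same number. Between Veh and PCN libraries of different numbers they correlated at -0.11 to 0.16. With so few libraries of the same number, these values cannot decide whether the numbers pair the libraries. Number 3 occurs only in Veh and number 4 only in PCN. A fit with the number as a replicate block therefore takes the group difference from the libraries numbered 5 and 6 alone. It also sets a level for each number, which leaves very little of the 6 libraries to estimate the spread. In that fit edgeR called 74 genes and 0 of the 39, and the median was 0.056. Its count of 74 is therefore not comparable with that of the fit without the block. Pparg had a log2 fold change of 0.72 and Rxrb -0.30. DESeq2 with the block, chosen after seeing the data, called 0 of the 39.

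Depth limits the scarce genes. Nr1i3, Pgr, Rxrg and Rarb lay near or below 1 CPM in every library, so Nr1i3 and Pgr were not tested, and the log2 fold changes of Rxrg (SE 0.529) and Rarb (SE 0.471) had wide errors. With 3 libraries a group, single libraries moved several values or calls, as given for Pparg, Ppargc1a, Nr4a1, Nr5a2 and Ncoa1.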
